A study of Homo sapiens with 2 samples.

Results

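Interferon-stimulated genes are the genes that cells switch on when interferon binds its receptor, and 45 of them were followed here in HSC-3, a cell line derived from a human squamous carcinoma of the tongue. The members were chosen by symbol among the 60616 genes of the deposited tables, and all 45 were found. The cells had been treated either with the vehicle, 0.1% DMSO, or with 1 µM FIN56 for 48 h, and the labels give a time for the FIN56 culture only. The compound FIN56 triggers ferroptosis, in which peroxidation of membrane lipids kills the cell, and the study used a dose it describes as sublethal. Each condition has 1 library from 1 cell line, so no difference below has a replicate check within these data and no p-value is given. Any other difference between both cultures cannot be told apart from FIN56.

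Type I and type III interferons act through the kinases JAK1 and TYK2 and the complex ISGF3, which includes STAT2 and IRF9. ISGF3 binds the interferon-stimulated response element (ISRE) in front of antiviral genes. Interferon gamma acts through JAK1 and JAK2 and the gamma-activated site (GAS), and it raises IRF1, which in turn raises guanylate-binding proteins. Carcinoma cells often keep a part of this programme on without added interferon. The 45 genes were divided by role into 41 ISGF3-type genes and 4 gamma-type genes, IRF1, GBP1, GBP2 and GBP3. Many genes respond to both routes, and the division is one of convenience.

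The libraries held 70184517 (DMSO) and 73062209 (FIN56) expected counts. Squamous epithelial markers were abundant in both, with levels between 65.8 and 3109 TPM (a share of all transcripts, corrected for length) for KRT5, KRT14, KRT6A, KRT17, TP63, EPCAM and CDH1. Of the leukocyte markers, 3 of 4 (PTPRC, CD3E and NKG7) had 0 counts in both libraries, and the exception, CD14, stood at 5.41 TPM with DMSO and 7.87 with FIN56. Endothelial markers summed to 0.120 TPM in each library, and fibroblast markers to 6.89 TPM with DMSO and 3.82 with FIN56, nearly all of it COL1A1.

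Most interferon-stimulated genes were slightly higher in FIN56-treated HSC-3 cells, and a few differed more, chiefly upward. The difference was measured as the ratio of deposited FPKM values (fragment counts scaled by gene length and library size), FIN56 over DMSO, with the study's threshold of 1.5 and its inverse, 1/1.5. A gene was compared when its FPKM was above 0 in both libraries and its expected counts summed to at least 50, which held for 43 of the 45 members. Of these, 6 (14.0%) were higher by 1.5 or more, beside 6.84% of all 15770 genes compared. They were IFI44L, BST2, IFI6, IFI27, GBP1 and SAMD9. Only 2 (4.65%), IFI35 and IFI44, were at 1/1.5 or less, beside 10.1% of all genes. Without the count minimum, the higher shares were 13.6% of members and 14.7% of all genes. The median ratio was 1.13 over the members (log2 0.17) and 1.01 over all genes (log2 0.020), and 33 of the 43 members stood above 1, beside 52.0% of all genes. In bulk RNA, a change in the share of cells that express a gene and a change in the RNA per cell cannot be told apart.

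Beside each FPKM ratio, the ratio of expected counts scaled by library totals is given with a 95% exact Clopper-Pearson interval. The interval covers counting error only, and it compares both libraries, not the conditions. Reads that carry no molecular identifier cannot be counted as separate molecules, so the interval may be too narrow. It also leaves out the uncertainty of dividing reads between genes, which concerns the 14 members whose counts were not whole. It lay above 1 for 30 of the 43 members, beside 34.2% of all genes compared, and below 1 for 9 members, beside 33.7% of all genes. In 4 members, USP18, MX2, EPSTI1 and GBP3, it included 1. Among genes with an FPKM of at least 1 in at least 1 library, 5 of 41 members were higher and 2 were lower, beside 4.96% and 8.32% of the 13238 genes that also met the count minimum.

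**Figure D1:**
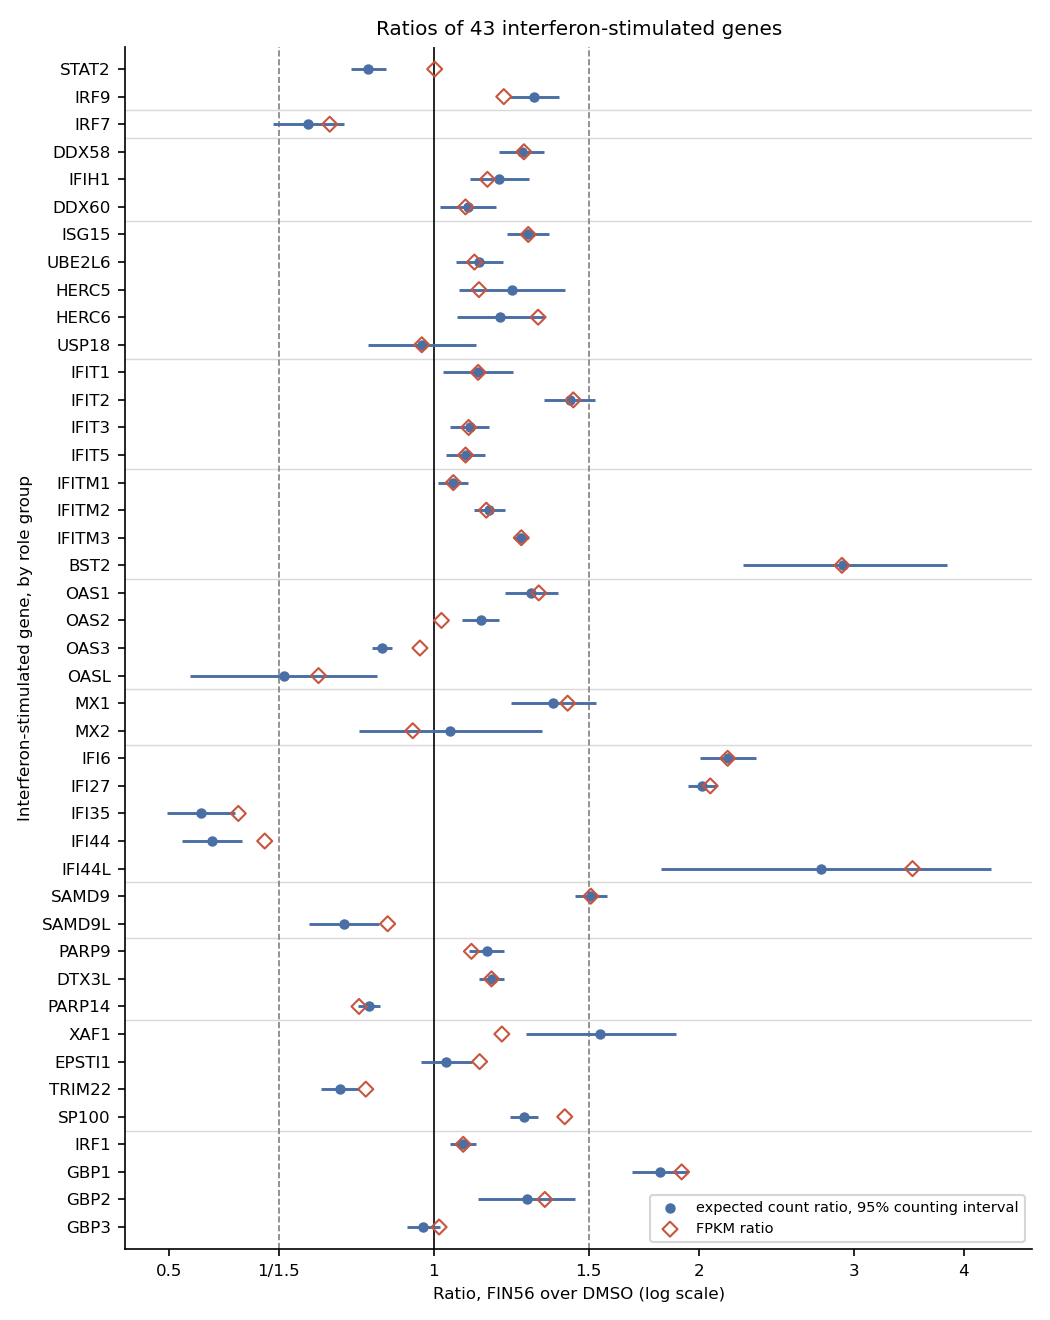
Ratio of FIN56 over DMSO for the 43 interferon-stimulated genes compared, on a log axis, grouped by role between grey lines. Blue points are expected count ratios with 95% counting intervals (bars), open diamonds are FPKM ratios, and dashed lines mark 1.5 and 1/1.5. BST2, IFI6, IFI27, IFI44L and GBP1 stand apart to the right, IFI35 and IFI44 to the left, and most others lie between 1 and 1.5.

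None of the factors that carry the signal, STAT2, IRF9 and IRF7, passed a threshold. Over all genes compared, 6.84% were higher and 10.1% lower, so most genes passed neither threshold. STAT2, the ISGF3 subunit that type I and III signals require, had 3999 expected counts with DMSO and 3507 with FIN56. Its FPKM ratio was 1.00, whereas its count ratio was 0.842 (0.805 to 0.882), so its direction depends on the correction for transcript length. IRF9, which gives ISGF3 its DNA contact, had 1654 and 2240 counts and an FPKM ratio of 1.20. IRF7, the factor that amplifies interferon-alpha production, had 14.6 TPM in DMSO and 11.3 in FIN56 and an FPKM ratio of 0.762. None of the 3 cytosolic RNA sensors among the members passed a threshold. DDX58, which encodes RIG-I, had an FPKM ratio of 1.27, IFIH1, which encodes MDA5, 1.15, and the helicase DDX60 1.09.

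The ISG15 system, in which a ubiquitin-like protein is attached to other proteins and removed again, had no member past a threshold. Most genes compared likewise passed neither, with 6.84% higher and 10.1% lower. ISG15 itself had 86.8 TPM with DMSO and 113.6 with FIN56, an FPKM ratio of 1.28 and a count ratio of 1.28 (1.21 to 1.35). Its conjugating enzyme UBE2L6 had an FPKM ratio of 1.11, the ligase HERC5 1.13 and the related HERC6 1.31. USP18, which removes ISG15 and restrains the receptor, had 402 and 406 expected counts and a count ratio of 0.970 (0.843 to 1.12).

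The IFIT genes, whose products bind viral RNA, were all between 1 and 1.5. IFIT2 had 1466 counts with DMSO and 2179 with FIN56, an FPKM ratio of 1.44 that was the highest among members just below the threshold. IFIT1, IFIT3 and IFIT5 had FPKM ratios of 1.12, 1.10 and 1.09. Levels ran from 4.49 TPM for IFIT1 to 25.6 for IFIT3 in the DMSO library, so these genes were also transcribed in the vehicle library.

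The most abundant members were the IFITM genes, which encode membrane proteins that hinder virus entry. IFITM3 stood at 849.6 TPM with DMSO and 1092 with FIN56, and it alone made up 39.2% of the summed TPM of the 45 genes in each library. IFITM1 had 169.7 and 182.6 TPM and IFITM2 162.0 and 190.0 TPM. Their FPKM ratios were 1.26, 1.05 and 1.15 in that order. The expected counts of all 3 were not whole numbers, as happens when reads are divided between near-identical copies, and their separate values are uncertain.

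BST2, which encodes tetherin, a protein that holds budding virus at the cell surface, differed more than almost all other members. It had 77 expected counts with DMSO and 234 with FIN56, at 1.82 and 5.42 TPM. The FPKM ratio was 2.91 and the count ratio 2.92 (2.25 to 3.83). The gene (chromosome 19, 17402939 to 17405630, minus strand) was among the weakly expressed members in both libraries.

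The oligoadenylate synthetases, which sense double-stranded RNA and switch on RNase L, did not share a direction. OAS1 had 22.0 TPM with DMSO and 29.6 with FIN56, an FPKM ratio of 1.32. OAS2 had an FPKM ratio of 1.02 and OAS3, the most abundant of the family, one of 0.965. OASL, a relative without synthetase activity, had 165 and 116 counts and an FPKM ratio of 0.740, the lowest among the members that did not reach 1/1.5. The MX GTPases, which block virus replication, also differed from each other. MX1 had 538 and 766 counts and an FPKM ratio of 1.42, while MX2 had 137 and 149 counts, an FPKM ratio of 0.947 and a count ratio of 1.04 (0.823 to 1.33).

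RSAD2 and CMPK2 were close to silent. RSAD2, which encodes the antiviral enzyme viperin, had 0 expected counts with DMSO and 1 with FIN56. CMPK2, a mitochondrial nucleotide kinase gene next to it, had 3 counts in each. These values are at or under the 3 counts that a count of 0 allows, and no fold is given. Both were left out of the comparison, although other ISGF3-type genes such as IFIT3 and OAS3 had at least 2768 counts in the same libraries.

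The 5 IFI genes held the widest range. IFI6 (chromosome 1, 27666064 to 27672212), a small membrane protein gene, had 1040 counts with DMSO and 2338 with FIN56, at 30.9 and 68.2 TPM. Its FPKM ratio was 2.16 and its count ratio 2.16 (2.01 to 2.33). IFI27 (chromosome 14, 94104836 to 94116695), of the same protein family, had 4148 and 8709 counts, at 174.7 and 368.2 TPM, with an FPKM ratio of 2.06 and a count ratio of 2.02 (1.94 to 2.09). Both were well expressed, and their counts were whole numbers. IFI44L had 31 counts with DMSO and 89 with FIN56, at 0.180 and 0.650 TPM. Its FPKM ratio of 3.50 was the highest of all members, and the count ratio was lower, 2.76, with a wide interval (1.81 to 4.30) from few reads. By count ratio BST2 stood higher, at 2.92. With 1 FPKM added to both values, the log2 ratio of IFI44L fell from 1.81 to 0.34 and no longer passed the threshold. IFI35 (chromosome 17, 43006740 to 43014456), whose product binds the leucine-zipper protein NMI, went the other way, with 1345 counts with DMSO and 762 with FIN56, an FPKM ratio of 0.600 and a count ratio of 0.544 (0.497 to 0.595). IFI44 had 1742 and 1015 counts, an FPKM ratio of 0.643 and a count ratio of 0.560 (0.518 to 0.605). All 5 IFI genes were thus past a threshold, 3 upward and 2 downward, beside 6.84% and 10.1% of all genes compared. Shares of 5 genes are coarse, and IFI44L is among them on few reads. IFI35 and IFI44 were the only members past 1/1.5.

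SAMD9 and SAMD9L encode related proteins that restrict poxviruses and cell growth. SAMD9 had 3560 counts with DMSO and 5595 with FIN56, an FPKM ratio of 1.51 that lay just inside the threshold, with a count ratio of 1.51 (1.45 to 1.57). SAMD9L had 1033 and 850 counts and an FPKM ratio of 0.887. PARP9 and DTX3L, which form an ADP-ribosylation and ubiquitin ligase complex, had FPKM ratios of 1.10 and 1.16, and PARP14, a mono-ADP-ribosyltransferase, had 0.823. PARP9 and DTX3L overlap on opposite strands and their counts were not whole, so their reads may be shared. Of the remaining ISGF3-type genes, SP100, a nuclear body protein gene, had an FPKM ratio of 1.41, EPSTI1 1.13 and the ubiquitin ligase gene TRIM22 0.837. XAF1, which encodes an antagonist of the apoptosis inhibitor XIAP, had 170 and 274 counts. Its count ratio of 1.55 (1.27 to 1.89) was past 1.5, but its FPKM ratio was 1.20.

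The gamma-type genes were set against the ISGF3-type genes. Of the 4 gamma-type members, 1 (25%) was higher by 1.5 or more and none was at 1/1.5 or less, with a median log2 FPKM ratio of 0.27. Of the 39 ISGF3-type members compared, 5 (12.8%) were higher and 2 (5.13%) lower, with a median of 0.17. Of a narrower list of 23 core antiviral genes, 21 were compared, without RSAD2 and CMPK2. Of these, 3 (14.3%) were higher and 1 (4.76%) lower, with a median of 0.17. Over all genes compared, 6.84% were higher and 10.1% lower. A share of 4 genes is too coarse to weigh against these. With the deposited rlog values, which shrink differences, the medians were 0.088 for the gamma-type and 0.091 for the ISGF3-type genes, so their order is not settled. The FPKM ratios of the gamma-type genes, 1.01 to 1.91, lay inside the ISGF3-type range of 0.600 to 3.50. GBP1 (chromosome 1, 89051882 to 89065360), a GTPase that coats the vacuoles of intracellular microbes, had 1091 counts with DMSO and 2052 with FIN56, at 9.63 and 18.8 TPM, an FPKM ratio of 1.91 and a count ratio of 1.81 (1.68 to 1.95). GBP2 had 430 and 571 counts and an FPKM ratio of 1.34. GBP3 was the most abundant GBP gene at 34.6 and 35.9 TPM, with an FPKM ratio of 1.01 and a count ratio of 0.973 (0.933 to 1.02), so its direction is not set. IRF1, a transcription factor that acts on the GBP genes, had 77.6 and 85.7 TPM and an FPKM ratio of 1.08. GBP1 therefore stood apart from IRF1, GBP2 and GBP3 in this pair of libraries. The counts of the 4 genes were not whole numbers, and the GBP genes are close paralogs.

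**Figure D2:**
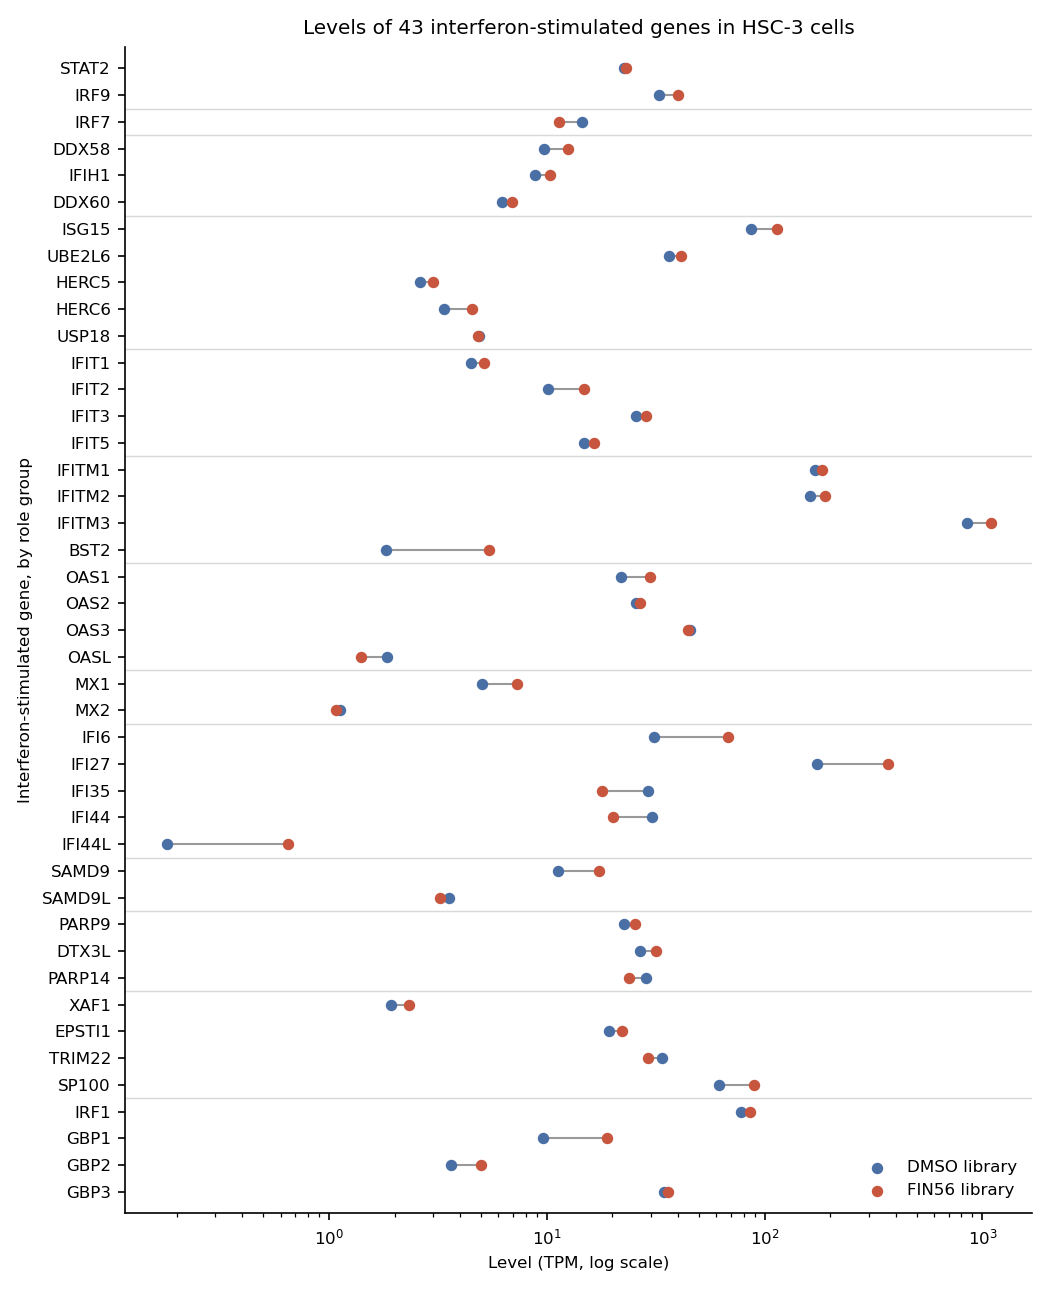
Level of each of the 43 genes in TPM, on a log axis, in the DMSO library (blue) and the FIN56 library (red), joined by a grey bar and grouped by role between grey lines. IFITM3 is the highest at 849.6 and 1092 TPM and IFI44L the lowest at 0.180 and 0.650, and the long bars belong to IFI44L, BST2, IFI6, IFI27 and GBP1.

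The levels spanned more than 3 orders of magnitude on the TPM scale, which is corrected for length and allows genes to be compared. In the DMSO library 4 members (IFITM3, IFI27, IFITM1 and IFITM2) were at 100 TPM or more, 23 between 10 and 100, 15 between 1 and 10, and 3 (IFI44L, CMPK2 and RSAD2) below 1. With FIN56 the numbers were 5, 25, 12 and 3, ISG15 joining the first group. The TPM of the 45 genes summed to 2168 with DMSO and 2783 with FIN56, 1.28 times as much. Of this difference of 614 TPM, 71.0% came from IFITM3 and IFI27, so the sum says little about the other members.

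Neighbouring members did not always share a direction. Members within 250 kb of each other on GRCh38 formed 10 groups that held 26 of the 45 genes. IFI44L (chromosome 1, 78619902 to 78646145) and IFI44 (chromosome 1, 78649796 to 78664078) lie next to each other on the plus strand and had FPKM ratios of 3.50 and 0.643, which is 5.45 times apart. Their counting intervals, 1.81 to 4.30 and 0.518 to 0.605, did not overlap. These intervals cover counting error only, and this pair was the furthest apart of the groups compared. Intervals off 1 were common, lying above 1 for 34.2% and below 1 for 33.7% of all genes compared. SAMD9 (chromosome 7, 93099513 to 93118023) and SAMD9L (93130056 to 93148385), both on the minus strand, were 1.70 times apart, again on opposite sides of 1. The GBP genes on chromosome 1, from 89006679 to 89150456, were 1.89 times apart, with GBP1 high between GBP3 and GBP2. In the IFIT group on chromosome 10 and the IFITM group on chromosome 11 the FPKM ratios were within 1.33 and 1.19 times of each other.

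**Figure D3:**
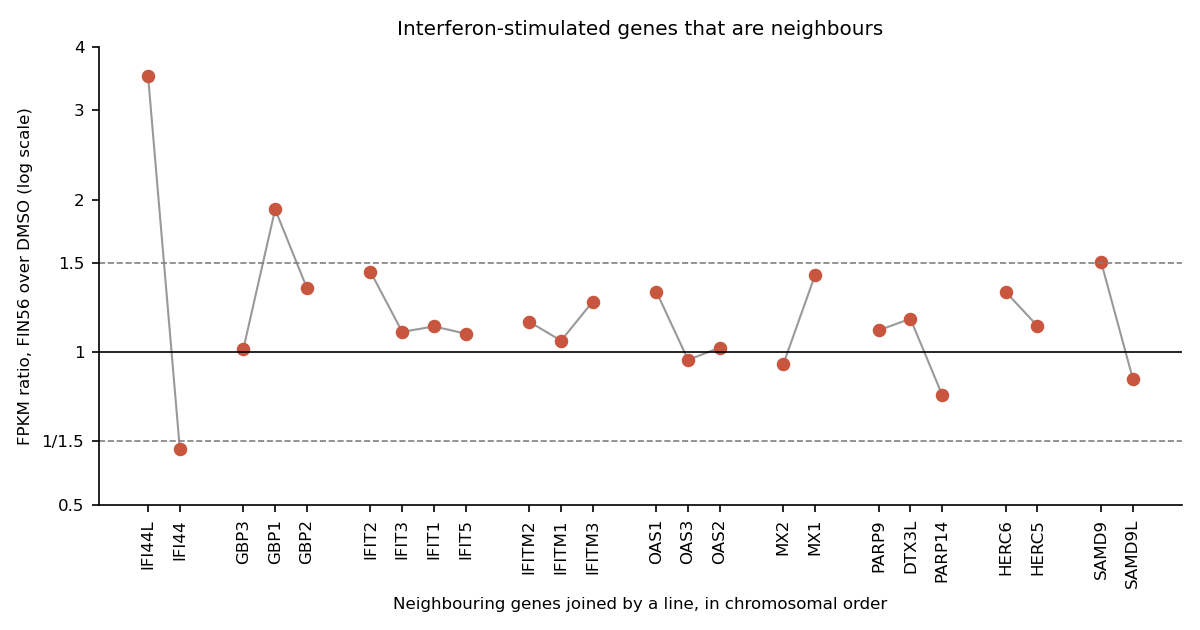
FPKM ratio, FIN56 over DMSO, on a log axis, of members that lie within 250 kb of each other, in chromosomal order and joined by lines. Dashed lines mark 1.5 and 1/1.5. The steepest line joins IFI44L (3.50) and IFI44 (0.643), whereas the IFIT and IFITM genes stay between 1 and 1.5.

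Promoter letters were read because the members differ although they are named for a common route. A window of 250 bases before and 50 after an annotated start was taken from RefSeq (GRCh38.p14), and 36 of the 45 members matched an entry. The ISRE core, written as GAAA, 2 bases of any kind and GAAA, was searched on both strands, and the palindromic GAS letters TTCNNNGAA. At least 1 ISRE core was present in a window of 24 of the 36 members (66.7%) and of 4.38% of the 27305 genes in the table. GAS letters were present for 12 members (33.3%) and 9.38% of the genes. All 6 higher members held an ISRE core, as did IFI44 but not IFI35 among the lower members, and 16 of the 26 members between the thresholds. The ISRE core was thus also present in members that passed no threshold. Each match is a run of letters and not a measured binding site.

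The windows below show the 250 bases before the start for the highest and the lowest members by FPKM ratio, IFI44L, BST2, IFI35 and IFI44. ISG15 and GBP1 are added as one of each type. Capitals mark ISRE cores and GAS letters, and all are written 5′ to 3′ along the gene.
IFI44L (chr1:78620198-78620447, plus strand): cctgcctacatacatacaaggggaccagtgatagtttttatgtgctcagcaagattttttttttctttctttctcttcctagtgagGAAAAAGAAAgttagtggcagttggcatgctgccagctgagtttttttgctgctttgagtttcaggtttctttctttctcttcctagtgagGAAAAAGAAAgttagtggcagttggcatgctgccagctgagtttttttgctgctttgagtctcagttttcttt
BST2 (chr19:17405631-17405880, minus strand): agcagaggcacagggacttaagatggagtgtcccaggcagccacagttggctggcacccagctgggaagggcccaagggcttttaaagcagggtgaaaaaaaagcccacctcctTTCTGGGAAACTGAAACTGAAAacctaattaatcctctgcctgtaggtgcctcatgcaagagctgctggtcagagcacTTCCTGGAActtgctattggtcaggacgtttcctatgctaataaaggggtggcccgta
IFI35 (chr17:43006534-43006783, plus strand): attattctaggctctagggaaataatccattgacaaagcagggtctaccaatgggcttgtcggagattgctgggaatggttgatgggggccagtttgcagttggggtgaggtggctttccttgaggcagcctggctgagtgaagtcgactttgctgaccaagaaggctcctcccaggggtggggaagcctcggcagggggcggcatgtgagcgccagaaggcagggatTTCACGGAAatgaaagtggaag
IFI44 (chr1:78649539-78649788, plus strand): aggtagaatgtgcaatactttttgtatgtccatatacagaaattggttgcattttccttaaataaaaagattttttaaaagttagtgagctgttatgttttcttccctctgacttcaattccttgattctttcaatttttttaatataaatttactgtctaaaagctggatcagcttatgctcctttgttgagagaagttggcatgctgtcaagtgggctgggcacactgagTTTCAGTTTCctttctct
ISG15 (chr1:1013247-1013496, plus strand): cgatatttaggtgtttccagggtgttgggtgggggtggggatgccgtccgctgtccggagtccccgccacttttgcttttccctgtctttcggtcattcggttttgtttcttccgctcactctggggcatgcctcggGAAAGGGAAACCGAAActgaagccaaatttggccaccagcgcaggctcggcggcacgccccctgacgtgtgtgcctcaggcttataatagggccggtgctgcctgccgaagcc
GBP1 (chr1:89065209-89065458, minus strand): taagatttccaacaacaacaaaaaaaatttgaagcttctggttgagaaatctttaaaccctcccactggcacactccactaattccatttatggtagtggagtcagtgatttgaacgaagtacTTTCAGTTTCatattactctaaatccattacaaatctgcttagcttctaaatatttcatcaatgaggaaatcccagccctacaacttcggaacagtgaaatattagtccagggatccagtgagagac

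IFI44L held its ISRE core 164 and 73 bases before the start, within a stretch of 85 bases that is repeated letter for letter 91 bases further on. BST2 held overlapping cores 130 and 124 bases before the start, with GAS letters at 136 that run into the first core and others at 58. IFI35 held only GAS letters, 22 bases before the start. IFI44, the lower neighbour of IFI44L, held a single core on the opposite strand 18 bases before the start. ISG15, with a ratio of 1.28, held overlapping cores at 113 and 107 bases, and GBP1 held a core on the opposite strand at 127 bases and no GAS letters in this window.

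Ligands of the pathway were nearly absent with 1 exception. Of 20 type I and type III interferon genes, 13 had 0 counts in both libraries and 19 had fewer than 25 in each. IFNB1, the first interferon made after viral sensing, had 2 counts with DMSO and 6 with FIN56, and IFNG, the gamma interferon gene, had 0 in both. IFNE, which encodes an interferon that some epithelia make without infection, had 258 and 885 counts, at 3.99 and 13.5 TPM, with an FPKM ratio of 3.30 and a count ratio of 3.30 (2.87 to 3.80). IFNE lies inside the long non-coding RNA gene MIR31HG (chromosome 9, 21380073 to 21559891) on the same strand. MIR31HG, looked up after the value of IFNE was seen, had 2338 and 7727 counts and a count ratio of 3.17 (3.03 to 3.33). Whether the IFNE reads come from MIR31HG transcripts was not tested, and the counts of IFNE were whole while those of MIR31HG were not.

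Receptors, kinases and inhibitors stood mostly near 1. Over all genes compared, 6.84% were higher and 10.1% lower, so none past a threshold among a few genes says little about them. None of the 6 receptor genes passed a threshold, with FPKM ratios between 0.908 for IL10RB and 1.15 for IFNAR1. Of the kinases, JAK1 had an FPKM ratio of 0.995, JAK2 1.12 and TYK2 0.799. TYK2 stood further from 1 by its count ratio, 0.713 (0.678 to 0.751). Of 7 inhibitors, SOCS3, which blocks JAK kinases downstream of IL-6 type receptors, was past 1.5, with 2466 and 4201 counts and an FPKM ratio of 1.64. SOCS1, the closer inhibitor of interferon signalling, had 277 and 237 counts and an FPKM ratio of 0.815. Of 17 nucleic acid sensing genes, 14 could be compared and none passed a threshold, with the highest FPKM ratio, 1.38, for the adaptor MYD88. MAVS, the adaptor of RIG-I and MDA5, had 0.866, the DNA sensor CGAS 1.03, and STING1, which acts after it, 1.24.

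Further gamma-type genes, from a list beside the members, differed among themselves. Of 19 such genes, 13 could be compared, of which 1 (7.69%) was higher and 1 (7.69%) lower, near the 6.84% and 10.1% of all genes, and the median log2 FPKM ratio was 0.097. The higher gene was CD274, which encodes PD-L1, with 14.3 TPM with DMSO and 31.2 with FIN56. For this gene the study also reports a rise by replicated RT-qPCR in HSC-3 cells at this dose and time. The lower gene was PSMB10, an immunoproteasome subunit gene, with 40.6 and 27.4 TPM and an FPKM ratio of 0.659, and it overlaps another gene on the same strand. CXCL9, CXCL10 and CXCL11, chemokine genes that interferon gamma raises strongly, had 0 and 1, 8 and 10, and 18 and 17 counts. GBP5 had 12 and 5 counts, and GBP4 had an FPKM ratio of 0.862 beside a count ratio of 1.07 (0.963 to 1.19). Over all 43 pathway genes compared, 3 (6.98%) were higher, a share near that of all genes (6.84%), and 1 (2.33%) was lower, beside 10.1% of all genes.

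**Figure D4:**
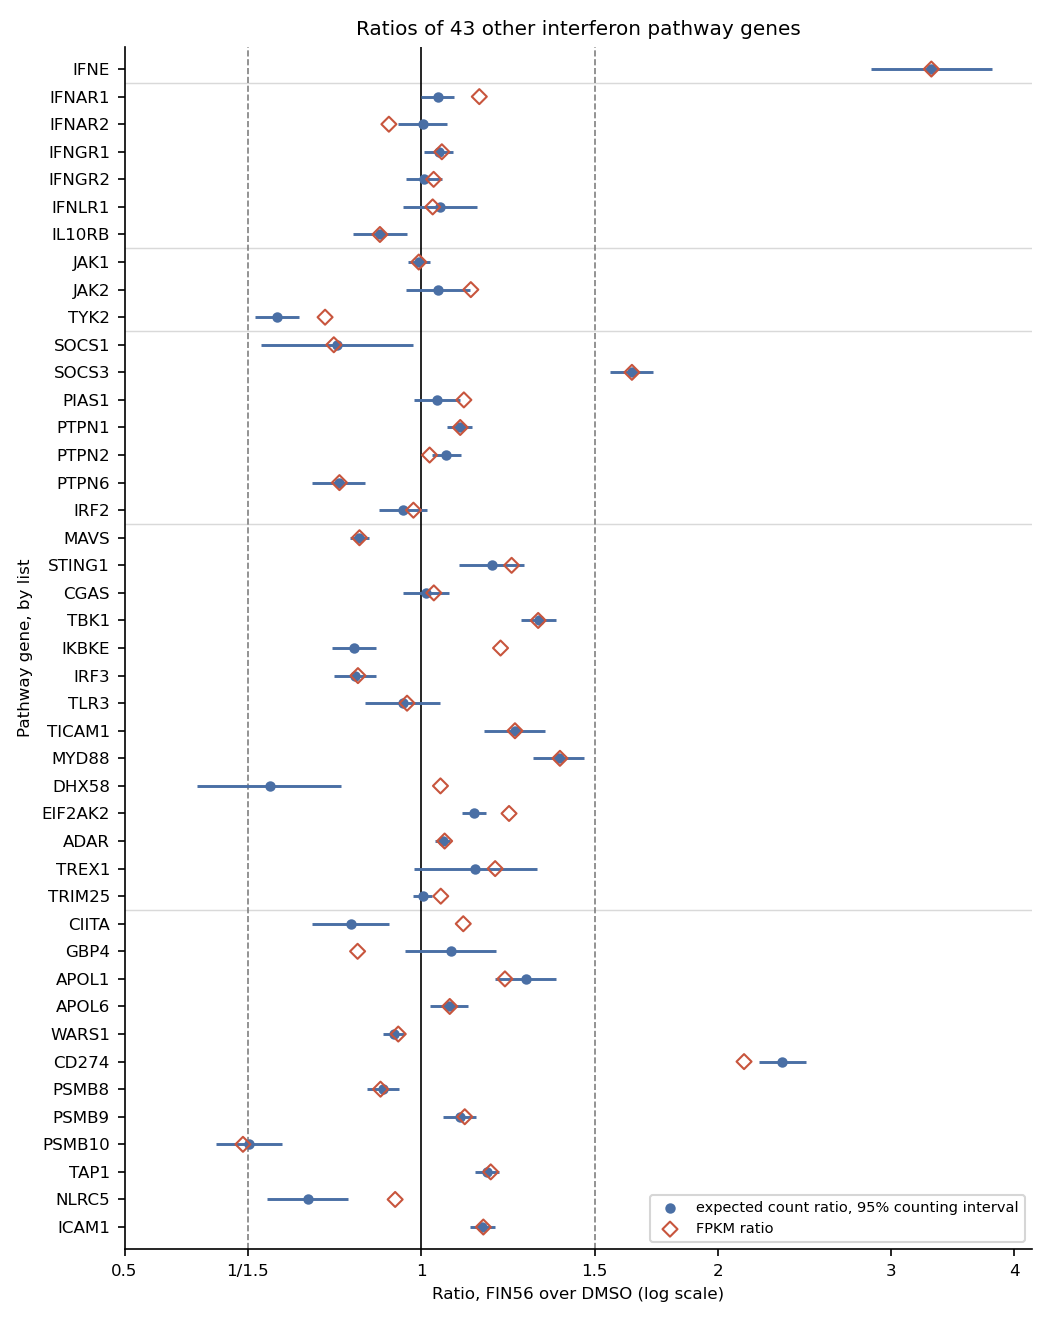
Ratio of FIN56 over DMSO for the 43 other interferon pathway genes compared, on a log axis, grouped by list between grey lines (interferons, receptors, kinases, inhibitors, nucleic acid sensing, gamma-type genes). Blue points are expected count ratios with 95% counting intervals, diamonds are FPKM ratios and dashed lines mark 1.5 and 1/1.5. IFNE, CD274 and SOCS3 lie to the right of 1.5 and PSMB10 at the left line.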

How the data were processed

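Total RNA of HSC-3 cells was made into poly(A) libraries with a stranded kit. By the study's methods for bulk RNA, reads passed AfterQC 0.9.7 for trimming, STAR 2.6.1a for alignment to GRCh38 (Ensembl release 94) and RSEM 1.3.1 for values per gene. These steps are described for tumors and taken to hold here. The strand setting is not given in the sources used here. The authors deposited expected counts, which carry no normalization and can hold parts of a read. They also deposited FPKM and TPM, both divided by effective length and library size and given to 2 decimals. A deposited rlog table, from DESeq2 1.26.0, is on the log2 scale.

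The main measure was the FPKM ratio. At the same fold change the study reports fewer up-regulated genes than were found here, and its gene set or filter was not reproduced. Counts were rounded for the intervals. The 45 genes, all named, and the lists were chosen with earlier results of these data known. Some listed genes are not reported here. From the pathway lists, genes past a threshold and those whose role is described are named. No test was possible with 1 library per condition. Steps were tested on simulated data. Positions came from GENCODE release 44 (GRCh38). edgeR 4.0.16 and DESeq2 1.42.0 under R 4.3.3 gave scaling factors only. Ratios and intervals were computed in Python 3.11.15 with scipy 1.17.1 and pandas 2.3.3. Alternatives were TPM, rlog values, TMM, median-of-ratios and library-total scaling, centring on the median of all genes, other minimum values, a pseudocount of 1 FPKM, a threshold of 2, members with whole counts, and the narrower list.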

Additional observations from a re-analysis of the deposited data

How the results depend on the processing

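No paired analysis was possible because DMSO and FIN56 have 1 library apiece, so neither could be left out. The number of higher members was 6. It was 7 with TMM, median-of-ratios or library-total scaling of the expected counts, where XAF1 passed 1.5, and 5 with centring on the median of all genes, where SAMD9 fell to 1.49. A pseudocount of 1 FPKM or a threshold of 2 left 4. The deposited rlog values, which shrink differences, left 0 higher and 0 lower members, and a threshold of 2 left 0 lower members. The median log2 ratio of the gamma-type genes moved from 0.27 to 0.088 with rlog values and that of the ISGF3-type genes from 0.17 to 0.091, which turns their order, and the median of all members likewise moved from 0.17 to 0.091. The gamma-type median could not be had from whole counts, since none of the 4 has them. No scaling shifted the median of all genes by more than 0.032 (log2). Of the 43 members, 3 (STAT2, MX2 and GBP3) changed direction between scalings, and none of the 8 past a threshold did. Over all genes, 1078 were higher and 1596 lower. These numbers became 7 and 16 with rlog values, 355 and 665 with the pseudocount, 368 and 512 with the threshold of 2, and 3583 and 4240 without the minimum of 50 counts. With TMM, library-total and median-of-ratios scaling, 5.91%, 5.95% and 6.77% of all genes were higher, beside 16.3% of members. Centring gave 6.32% and 11.6%. In these 4 settings 4.65% of members were lower, beside 9.13% to 10.6% of all genes. The pseudocount gave 2.25% of all genes higher and 4.22% lower, beside 9.30% and 4.65% of members. The threshold of 2 gave 2.33% and 3.25%, beside 9.30% and 0% of members. Without the minimum of 50 counts, 14.7% of 24454 genes were higher and 17.3% lower, beside 13.6% and 4.55% of 44 members. In that setting the higher share of members did not exceed that of all genes. Depth limits IFI44L, RSAD2 and CMPK2 most.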

Other observations

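The number of reads and the level per length parted for several genes of the pathway. The FPKM ratio and the count ratio differed by more than 10% for 11 of the 43 members (25.6%) and for 17.9% of all genes compared. RSEM divides by an effective length that follows the estimated mix of transcripts in each library, so both ratios come from the same reads. DHX58, which encodes the RIG-I relative LGP2, had 334 counts with DMSO and 244 with FIN56, a count ratio of 0.702 (0.593 to 0.830) beside an FPKM ratio of 1.05. IKBKE, a kinase that activates IRF3, had a count ratio of 0.854 (0.811 to 0.899) and an FPKM ratio of 1.20. CIITA, the activator of HLA class II genes, had 0.848 (0.774 to 0.929) and 1.10. The largest departure among the members, 1.29 times, was that of XAF1. Transcript-level values were not analysed here.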
